A study of Rattus norvegicus with 15 samples.

Results

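The genes described here code for subunits of potassium and calcium channels, measured in rat mesenteric arteries on 15 Affymetrix arrays. They were taken as every probe set with a single gene symbol on the platform that starts with Kcn or Cacn, which gave 108 of the 8740 probe sets that are not array controls. Of these, 82 probe sets belonged to 54 potassium channel genes and 26 to 14 calcium channel genes. A probe set is a group of short probes that reads 1 transcript or part of it, and the deposited value is its signal, used below as log2 signal. Samples were taken in the inbred, spontaneously hypertensive rat (SHR), whose blood pressure climbs with age, and in the Wistar Kyoto rat (WKY), a related strain with normal pressure. Within a strain, control vessels were set beside collaterals, vessels whose flow was raised by occluding neighbouring arteries, in a study of collateral growth in SHR. There were 3 WKY control, 4 WKY collateral, 4 SHR control and 4 SHR collateral arrays, with no drug and no genetic change beyond strain in the labels. Age and the time after occlusion are not given in the labels, nor is it said whether each array stands for its own animal, so p-values reflect the spread between these samples, which may be technical. The RNA was from whole arteries, so fewer cells of a type and less RNA per cell cannot be told apart.

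Potassium channels let potassium leave the smooth muscle cell, which makes the membrane potential more negative and relaxes the vessel. Voltage-gated calcium channels open on depolarization, and the calcium that enters drives contraction and also opens calcium-activated potassium channels, which act as a brake. The L-type channel is built from a pore subunit (Cacna1c in arteries) with beta (Cacnb) and alpha2-delta (Cacna2d) subunits that bring it to the membrane and tune its gating. The large-conductance calcium-activated channel pairs the pore Kcnma1 with the beta subunit Kcnmb1. The ATP-sensitive channel of vascular muscle has the pore Kcnj8, and delayed-rectifier and A-type currents come from Kv pores such as Kcna5 and Kcnd3.

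Upstream sequences are shown for 3 genes on which the results below turn, namely the calcium channel beta subunit Cacnb2 and the A-type potassium channel Kcnd3, which had the smallest p among members for the strain difference, and Kcnmb1, which lay above the 60th percentile of each array. Kcnd3 passed the filter on low signal through SHR arrays alone, so its difference was partly built into that choice. Each is the 250 bases before the gene start on the gene's strand, here the plus strand, from the RefSeq promoter table of build GRCr8. They lie at chr17:82472965-82473214 for Cacnb2, at chr2:195626066-195626315 for Kcnd3 and at chr10:19061849-19062098 for Kcnmb1. Capitals mark the GC box, GGGCGG read on either strand.
Cacnb2: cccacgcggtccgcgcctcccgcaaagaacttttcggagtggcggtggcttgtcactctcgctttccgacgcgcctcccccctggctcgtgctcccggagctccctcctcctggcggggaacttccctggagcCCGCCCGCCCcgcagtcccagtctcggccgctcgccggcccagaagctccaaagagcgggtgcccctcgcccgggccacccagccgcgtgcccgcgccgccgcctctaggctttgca
Kcnd3: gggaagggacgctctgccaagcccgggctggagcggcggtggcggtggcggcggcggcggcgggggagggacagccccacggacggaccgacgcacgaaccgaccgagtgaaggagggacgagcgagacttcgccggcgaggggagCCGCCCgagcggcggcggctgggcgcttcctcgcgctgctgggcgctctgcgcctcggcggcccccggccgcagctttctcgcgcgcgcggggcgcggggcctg
Kcnmb1: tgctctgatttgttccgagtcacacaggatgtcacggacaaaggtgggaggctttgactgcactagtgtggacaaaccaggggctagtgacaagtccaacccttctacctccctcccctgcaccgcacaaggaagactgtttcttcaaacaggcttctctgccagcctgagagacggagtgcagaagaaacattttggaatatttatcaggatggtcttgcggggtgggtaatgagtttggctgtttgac
Cacnb2 held 2 overlapping matches, Kcnd3 held 1 and Kcnmb1 held 0. Of the 68 channel genes, 49 matched the table, and 26 of these windows held a GC box (53.1%), against 32.4% of the 27455 windows of the table. TATAAA on either strand was in 6.12% of the channel windows and in 13.1% of all. These matches describe the letters of the window and say nothing of a factor bound there.

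Channel probe sets lay low on these arrays more often than the whole table: 60 of the 108 (55.6%) lay at or above the 40th percentile of their own array on 3 or more arrays, against 74.5% of all probe sets, and these 60, from 47 genes, were tested. The share was 43 of 82 for potassium and 17 of 26 for calcium channel probe sets (52.4% and 65.4%). On at least 8 arrays the count was 38 (35.2%, against 60% of all), and on all 15 arrays it was 17 (15.7%, against 33.6%). The 40th percentile lay between 7.15 and 8.52 on the log2 scale. A member at or above it on only 1 or 2 arrays, of which there were 26, or on none, of which there were 22, was not shown to be off in these arteries.

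**Figure D1:**
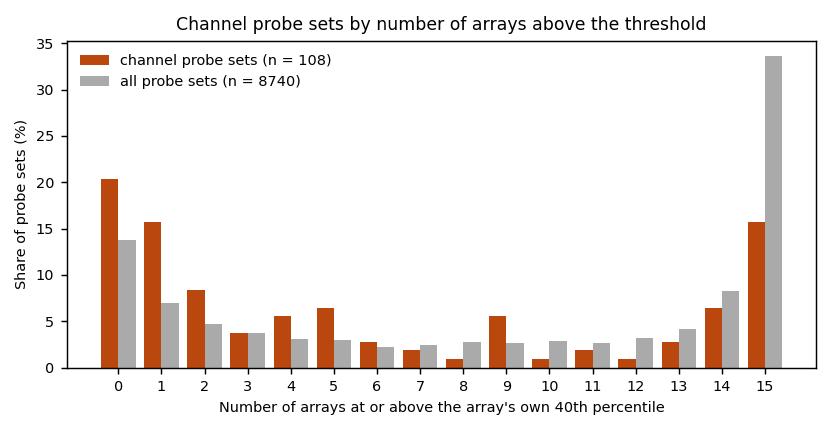
Share of probe sets (vertical axis, percent) by the number of arrays, 0 to 15, on which the signal lay at or above that array's 40th percentile (horizontal axis), for the 108 channel probe sets and all 8740. The channel bars are taller at 0 and 1 arrays (20.4% and 15.7%, against 13.8% and 7% of all) and shorter at 15 (15.7% against 33.6%).

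The calcium channel probe sets above the threshold on all 15 arrays were the pores Cacna1a (rc_AI229031_s_at) and Cacna1e (L15453_at), Cacna2d1 (M86621_at), Cacnb1 (rc_AA957892_at), Cacnb2 (rc_AA891260_at) and Cacnb3 (M88751_at). The potassium channel probe sets on all 15 were Kcna5 (M27158cds_at), the Kv beta subunit Kcnab2 (rc_H33656_at), the ether-a-go-go family members Kcnh2 (U75210_s_at) and Kcnh3 (AJ007627_at), the inward rectifiers Kcnj1 (S78154_at), Kcnj15 (rc_AA893192_at) and Kcnj8 (D42145_at), both probe sets of Kcnmb1 (AB010963_s_at and AF020712_at), the small-conductance calcium-activated channel Kcnn1 (AF000973_s_at) and Kcnq3 (AF091247_s_at). At the stricter 60th percentile 6 probe sets stayed above on all 15 arrays (5.56%, against 20.9% of all): both of Kcnmb1, Kcnj8, Kcnh2, Kcnh3 and Kcnq3. The pore Cacna1c (M59786_at) missed the full set by 1 array.

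On no array above the threshold were Cacna1d (U31772_s_at), both probe sets of the skeletal muscle pore Cacna1s, Kcna1 (M26161_at), Kcna2 (X16003cds_s_at), Kcna3, Kcnab3, Kcnb2, Kcnc2 (M59211_at and X62839mRNA_s_at), Kcnd3 (M74898cds_s_at), Kcnj1 (AF081366_s_at), Kcnj10 (U27558_at), Kcnj2, Kcnj6, Kcnj9, Kcnk3 (rc_AA925138_s_at), Kcnma1 (U93052_s_at), Kcnn3, Kcnq1, Kcnq3 (AF087454_at) and Kcnt1. Several of these carry well-studied vascular currents, among them Kcnj2, the pore of the strong inward rectifier, whose log2 signal ranged from 2.55 to 6.43. Kcna2 (J04731_at), Kcnd2 (both probe sets), Kcnab1 and Kcnk1 passed on only 1 or 2 arrays and were not tested either. Probe sets of 1 gene often parted: Kcnma1 had 2 of 4 tested, Kcnd3 1 of 3, Cacna1d 1 of 5 and Cacna1c 3 of 3. Just inside the rule, on exactly 3 arrays, were Kcnh6, Kcnj12, Kcnma1 (U55995_at) and Kcnv1. Just outside it, on 2 arrays, were 9 probe sets such as Kcnd3 (U92897_s_at, highest 8.65) and Kcnd2 (S64320_at, highest 8.28).

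The array SHR collateral 3 differed from the rest. It had Spearman correlations of 0.496 to 0.657 with the other arrays, which correlated with each other at 0.805 to 0.931, and its median log2 signal was 9.03 against 7.93 to 8.40. On it 57 channel probe sets lay above the 40th percentile, against 34 to 47 on the others, and 33 of the 60 tested (55%) had their highest value there, against 36.8% of all tested probe sets. Of the 17 members that passed on a single array, 8 did so on this one. RNA quality was read from the 3' and 5' control probe sets for actin and Gapdh, whose mean log2 ratio of 3' over 5' signal had group medians of 2.34 in WKY control, 2.47 in WKY collateral, 2.18 in SHR control and 1.84 in SHR collateral arteries. For differences that take in the SHR collateral group, the value without that array is given where it turned the sign or moved the value by over 1.5 times, and for the members described at most length. All 11 smooth muscle marker probe sets were tested and 9 lay above the threshold on all 15 arrays. Of the markers of other cells, 15 of 23 probe sets of nerve, 10 of 12 of endothelium, 8 of 9 of adipocytes and 5 of 6 of macrophages were tested. So were 8 of 9 of Schwann cells, 9 of 16 of striated muscle and 3 of 9 of mast cells. For lymphocytes it was 2 of 9, and for exocrine pancreas and gut epithelium 3 of 10. Of all probe sets 74.5% were tested, so passing the filter does not by itself show that a cell type was present.

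**Figure D2:**
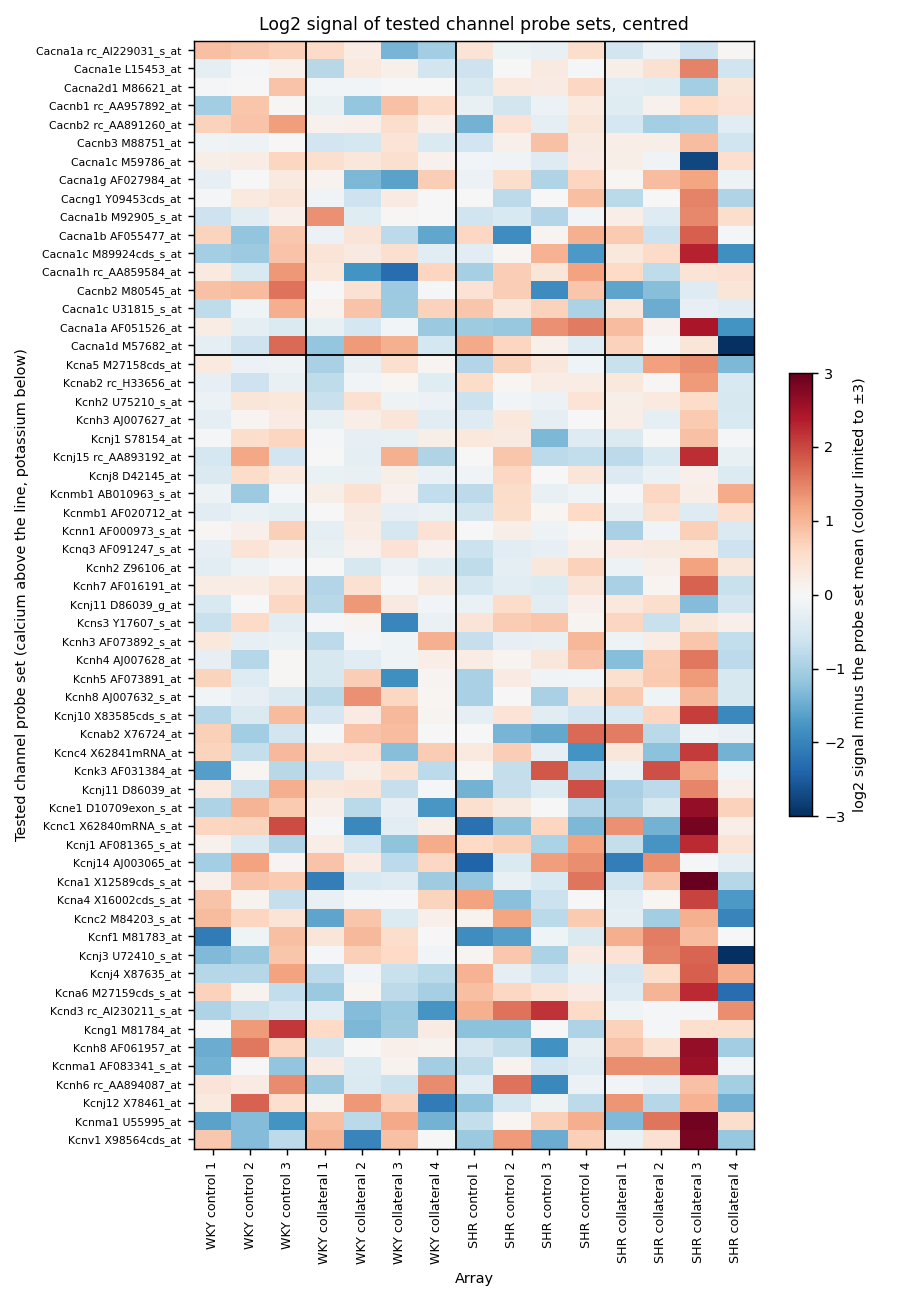
Log2 signal of the 60 tested channel probe sets (rows, calcium above the line and potassium below) on the 15 arrays (columns, ordered by group), each minus its own mean, with colour limited to 3 either way. The column of SHR collateral 3 is the reddest, with 33 of 60 rows at their highest there, while no group stands out as a block across rows.

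No channel probe set passed an adjusted p of 0.05 in any of the 7 comparisons (limma, Benjamini-Hochberg over 6512 probe sets). For collateral against control arteries the background was 0 called in WKY (0%), 0 in SHR (0%), 0 for the interaction, the SHR difference minus the WKY difference (0%) and 0 for their mean (0%). For SHR against WKY it was 2 in control arteries (0.0307%), 0 in collateral arteries (0%) and 58 in the mean of both vessel types (0.891%). The smallest adjusted p among channel probe sets was 0.9999 in WKY, 0.949 in SHR, 0.9997 for the interaction and 0.807 for the mean of both strains. For SHR against WKY it was 0.427 in control arteries, 0.558 in collateral arteries and 0.0728 in their mean. The values below are therefore given as sizes with errors, and none is a called change.

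Counts at an unadjusted p under 0.05 lay near the background. In WKY 2 of 60 channel probe sets reached it (3.33%, against 3.16% of all tested) and in SHR 2 (3.33%, against 3.76%). For the interaction there were 2 (3.33%, against 1.9%), and for the mean of both strains 5 (8.33%, against 5.11%). SHR against WKY gave 4 in control arteries (6.67%, against 6.46%), 4 in collateral arteries (6.67%, against 7.62%) and 5 in the mean of both vessel types (8.33%, against 11.9%). Over all 108 members, tested or not, the median log2 difference was -0.13 in WKY (-0.00077 over all 8740 probe sets) and 0.27 in SHR (0.13 over all). Over the tested members without SHR collateral 3, the SHR median went from 0.22 to -0.21, while that of all tested probe sets went from 0.06 to -0.0030. The counts at an unadjusted p under 0.05 were then 2 of 58 for SHR against WKY over both vessel types (12.4% of all tested), 2 in collateral arteries (5.27%) and 3 for WKY (4.98%).

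**Figure D3:**
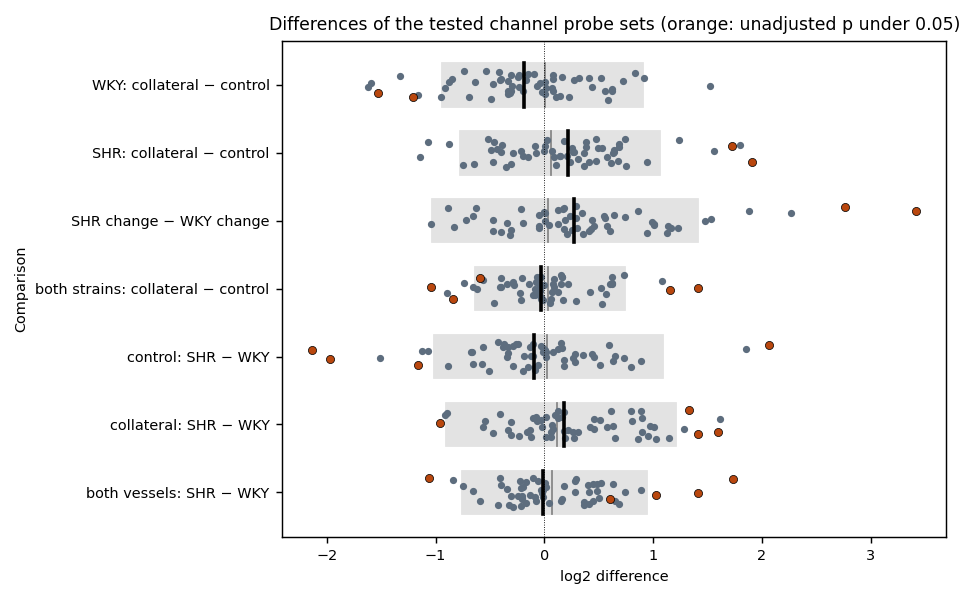
Log2 differences (horizontal axis) of the 60 tested channel probe sets in the 7 comparisons (rows), with orange points at an unadjusted p under 0.05 and black bars at their median. Grey bands span the 5th to the 95th percentile of all 6512 tested probe sets, with a grey line at their median, and most channel points lie within the bands.

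Among the L-type channel subunits, the beta subunit Cacnb2 had the smallest p of all channel probe sets for the strain difference. The probe set rc_AA891260_at had log2 signals of 10.52, 10.68 and 11.09 in WKY control and 9.95, 9.99, 10.35 and 9.99 in WKY collateral arteries. In SHR they were 8.41, 10.25, 9.54 and 10.19 in control and 9.30, 8.81, 8.87 and 9.48 in collateral arteries. Every SHR array lay below every WKY array of the same vessel type. The strain difference over both vessel types was -1.06 ± 0.27 (SE, 95% interval -1.62 to -0.50), with an adjusted p of 0.0728 from limma. It stood at -1.16 ± 0.39 in control and -0.96 ± 0.36 in collateral arteries, and at -1.02 over both without SHR collateral 3. Leaving out SHR control 4 gave -1.16 and a call (adjusted p 0.0411), and so did weighting the arrays, at -0.97 (adjusted p 0.0368). Over the alternatives the adjusted p ranged from 0.0368 to 0.2145.

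The other Cacnb2 probe set, M80545_at, lay above the threshold on 9 arrays. Its strain difference was -0.84 ± 0.48 (95% interval -1.84 to 0.16), the same sign with an interval that spans 0. Collateral minus control, in the mean of both strains, was -0.59 ± 0.27 for rc_AA891260_at and -1.04 ± 0.48 for M80545_at (adjusted p 0.955 and 0.967). In WKY the collateral arrays lay below the control arrays without overlap for both. That pattern in WKY was shown by 5 channel probe sets (8.33%, against 3.09% of all tested): both of Cacnb2, Cacna1a (rc_AI229031_s_at), Kcna1 and Kcnc1. In the other direction, and in SHR downward, there were 0 such channel probe sets (against 3.61% and 0.814%).

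Smooth muscle markers had a median strain difference of the same sign as that of Cacnb2. Of their 11 probe sets 10 had a strain difference below 0, with a median of -0.36, and 7 of 11 with a median of -0.15 without SHR collateral 3. Their summed signal ranged from 317959 to 449451 in WKY control, 387266 to 568384 in WKY collateral, 242574 to 472149 in SHR control and 131504 to 705457 in SHR collateral arteries. Smooth muscle myosin Myh11 stood at -1.25 (X16261_i_at), -0.97 (X16262_s_at) and -0.36 (S61948_s_at), and desmin, Des, at -0.79, while the 3 probe sets of smooth muscle actin Acta2 lay between -0.23 and -0.13. Macrophage markers had a median strain difference of 1.84 over 5 tested probe sets, mast cell markers one of 1.19 over 3 and adipocyte markers one of 1.08 over 8. Summed macrophage signal ranged from 3346 to 18851 on the WKY arrays and from 4938 to 43339 on the SHR arrays, and summed adipocyte signal from 5289 to 46236 and from 8681 to 96005. The part of these cell types, and of the lower 3' to 5' ratio in SHR, in the Cacnb2 value was not tested.

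The pore Cacna1c was read by 3 tested probe sets. M59786_at, above the threshold on 14 arrays, had signals of 10.50 to 10.96 in WKY control, 10.46 to 10.81 in WKY collateral and 9.95 to 10.57 in SHR control arteries. In SHR collateral arteries 3 arrays lay between 10.22 and 10.83 and SHR collateral 3 at 7.59. The strain difference of -0.66 ± 0.36 was -0.29 without that array. The probe sets M89924cds_s_at and U31815_s_at stood at 0.15 ± 0.57 and -0.20 ± 0.47. With SHR collateral 3 left out they stood at -0.17 and -0.23, so that all 3 were below 0, and the sign of M89924cds_s_at rested on that array.

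Cacna2d1, the alpha2-delta subunit, ranged from 9.05 to 10.92 over all arrays, and from 9.99 to 10.08 in WKY collateral arteries. Its difference between collateral and control arteries was -0.41 ± 0.24 in the mean of both strains. Cacnb1 and Cacnb3, the other beta subunits on all 15 arrays, had strain differences of 0.04 ± 0.33 and 0.36 ± 0.31, and of -0.028 and 0.24 without SHR collateral 3. The neuronal-type pore Cacna1a (rc_AI229031_s_at) had 10.05, 9.96 and 9.86 in WKY control arteries and 9.72, 9.37, 7.77 and 8.12 in WKY collateral arteries. It showed no overlap and a WKY difference of -1.21 ± 0.44 (unadjusted p 0.0133, adjusted p 0.9999). In SHR its signals were 9.56, 9.01, 8.92 and 9.68 in control and 8.61, 8.97, 8.53 and 9.18 in collateral arteries, which overlapped, and the mean over both strains was -0.84 ± 0.30. The Cacna1a probe set AF051526_at, above the threshold on 5 arrays, stood at -0.04 ± 0.59 for that mean, and at -0.37 without SHR collateral 3, against -0.79 for rc_AI229031_s_at. Among the T-type pores, which open at low voltage, Cacna1g had a collateral strain difference of 1.03 ± 0.51, or 0.80 without SHR collateral 3, and Cacna1h a strain difference over both vessel types of 0.45 ± 0.51. The N-type pore Cacna1b (M92905_s_at) stood at 0.73 ± 0.36 in the mean collateral difference, and Cacna1d (M57682_at) at -0.62 ± 0.69 with a single array at 2.88.

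**Figure D4:**
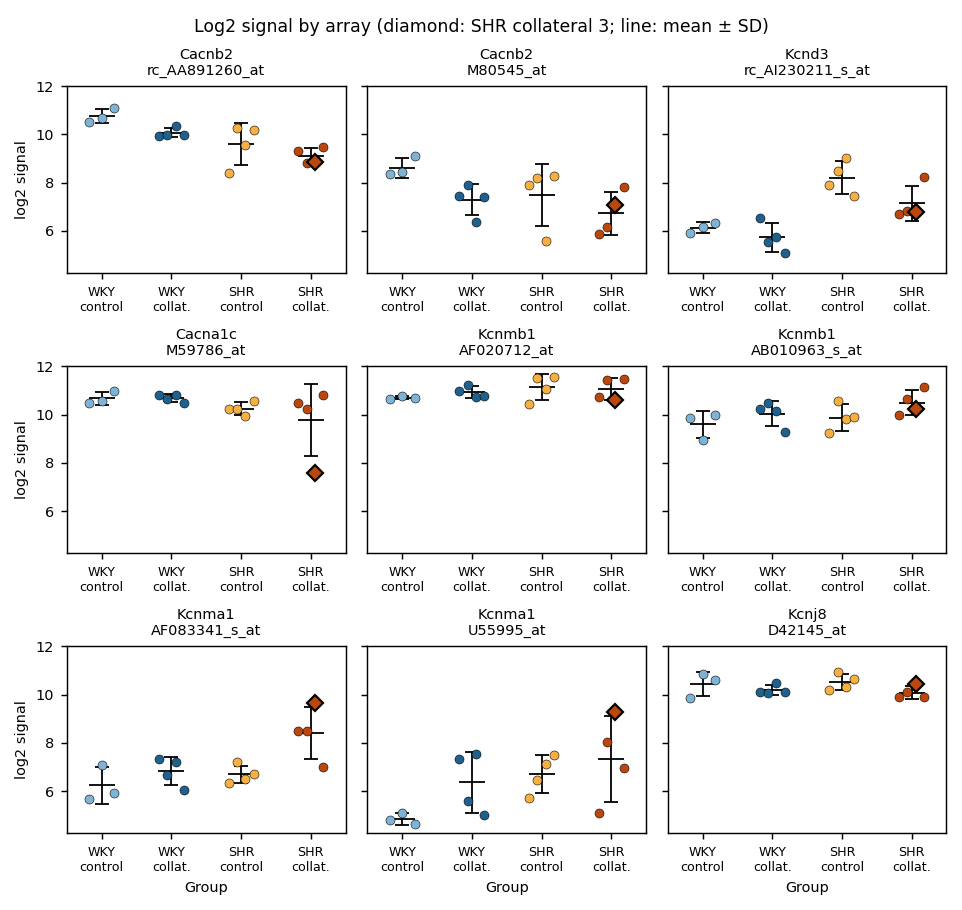
Log2 signal (vertical axis) on each array for 9 probe sets of 6 channel genes in the 4 groups (horizontal axis), with lines at the group mean ± SD and a diamond for SHR collateral 3. For Cacnb2 (rc_AA891260_at) the SHR arrays lie below, and for Kcnd3 above, the WKY arrays of the same vessel type, while the groups of both Kcnmb1 probe sets and of Kcnj8 overlap.

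Kcnd3 codes for the Kv4.3 pore of a fast inactivating, A-type current. Its probe set rc_AI230211_s_at had log2 signals of 5.91, 6.18 and 6.33 in WKY control and 6.54, 5.56, 5.74 and 5.09 in WKY collateral arteries. In SHR they were 7.91, 8.47, 9.02 and 7.43 in control and 6.71, 6.82, 6.78 and 8.24 in collateral arteries. Every SHR array lay above every WKY array. The strain difference over both vessel types was 1.74 ± 0.44 (SE, 95% interval 0.82 to 2.66), with an adjusted p of 0.0734 from limma. It was 2.07 ± 0.64 in control and 1.41 ± 0.60 in collateral arteries (1.53 without SHR collateral 3). All WKY values lay below the 40th percentile, and the probe set was tested only because 3 SHR control arrays and 1 SHR collateral array lay above it, so a difference was built into its passing. With a constant of 64 added before log2, which damps differences among dim signals, the difference was 1.12. It was called with array weights (1.72, adjusted p 0.0251) and without the variance trend (adjusted p 0.0272), and the adjusted p over the alternatives ran from 0.0251 to 0.223.

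The other Kcnd3 probe sets were not tested and showed no such split. M74898cds_s_at had group means of 5.98 in WKY control, 5.80 in WKY collateral, 5.57 in SHR control and 6.07 in SHR collateral arteries. U92897_s_at had means of 7.33, 6.94, 7.03 and 7.38 in the same order. A strain difference in the probed sequence and a difference in level cannot be told apart here, for Kcnd3 or for Cacnb2. Groups that did not overlap were seen for 4 channel probe sets higher in SHR control arteries (6.67%, against 4.85% of all tested), namely Kcnd3, Kcnma1 (U55995_at), Kcnab2 (rc_H33656_at) and Kcnh4. Those lower were 5 (8.33%, against 3.72%), both of Cacnb2, Cacna1a (rc_AI229031_s_at), Kcnc1 and Kcnj12. In collateral arteries Kcnd3 alone was higher without overlap (1.67%, against 2.07%) and Cacnb2 (rc_AA891260_at) alone lower (1.67%, against 1.55%).

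The subunits of the large-conductance calcium-activated channel differed in how well they were read. Kcnmb1, its beta subunit, lay above the 60th percentile of each array: AF020712_at lay between 10.44 and 11.58 and AB010963_s_at between 8.94 and 11.13. The groups of both overlapped in every comparison. Their strain differences were 0.28 ± 0.21 (95% interval -0.17 to 0.73) and 0.37 ± 0.27 (95% interval -0.21 to 0.94). Collateral against control, in the mean of both strains, gave 0.07 ± 0.21 and 0.53 ± 0.27, and without SHR collateral 3 the first was 0.15.

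Kcnma1, the pore of that channel, lay near or below the 40th percentile on most arrays. AF083341_s_at had 5.69, 7.10 and 5.92 in WKY control and 7.35, 6.69, 7.21 and 6.07 in WKY collateral arteries. Its SHR control arrays stood at 6.35, 7.20, 6.51 and 6.72, and its SHR collateral arrays at 8.50, 8.50, 9.67 and 7.02, where 3 of 4 lay above the threshold and the fourth overlapped the controls. The probe set passed the filter on low signal only with the help of these SHR collateral arrays. Its differences that take in the SHR collateral group were thus partly built into that choice. The SHR collateral difference was 1.73 ± 0.61 (unadjusted p 0.0114, adjusted p 0.949), and 1.31 without SHR collateral 3, which held the highest value. The strain difference in collateral arteries was 1.60 ± 0.61, and 1.18 without that array. The interaction was 1.14 ± 0.90 (adjusted p 0.9997), and 0.72 with that array left out. Of the other Kcnma1 probe sets, U55995_at passed on 3 arrays, with a strain difference of 1.41 ± 0.64. It could not be tested without SHR collateral 3, since it then fell below the rule. Its strain difference may thus be partly built into its passing the filter. U93052_s_at lay below the threshold on all arrays and U40603_at on 14.

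Kcnj8, the pore of the vascular ATP-sensitive channel, was among the steadiest members, with signals between 9.88 and 10.93 over the 15 arrays. Its strain difference was -0.01 ± 0.21 (95% interval -0.45 to 0.42), or -0.073 without SHR collateral 3, and collateral against control stood at -0.34 ± 0.21 in the mean of both strains. Kcnj11, the pore of the ATP-sensitive channel of heart and pancreas, had strain differences of -0.21 ± 0.38 (D86039_g_at) and -0.21 ± 0.51 (D86039_at). Leaving out SHR collateral 3 parted them, to -0.037 and -0.46. The inward rectifier Kcnj4 (X87635_at) stood at 1.33 ± 0.61 for SHR against WKY in collateral arteries, and at 0.97 without SHR collateral 3. Kcnj1 (S78154_at), the renal outer medullary channel, had a strain difference of -0.24 ± 0.28, or -0.37 without that array, and Kcnj12 (X78461_at), tested on 3 arrays above the threshold, stood at -1.52 ± 0.88 in control arteries.

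Of the delayed rectifiers, Kcna5, a main Kv pore of arterial muscle, lay between 7.63 and 10.35. Its strain difference was 0.17 ± 0.41 and its collateral difference, in the mean of both strains, -0.00035 ± 0.41, so neither was larger than its error. They were -0.040 and -0.21 without SHR collateral 3. Kcnab2 (rc_H33656_at), a cytoplasmic beta subunit of Kv channels, had 9.62, 9.13, 9.28 and 9.30 in SHR control against 8.82, 8.45 and 8.85 in WKY control arteries, with no overlap. Its strain difference over both vessel types was 0.60 ± 0.27 (adjusted p 0.396), and 0.44 without SHR collateral 3. The other Kcnab2 probe set, X76724_at, stood at -0.17 ± 0.51.

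The largest values of the interaction belonged to Kcnc1, Kcng1 and Kcna1, each above the threshold on 4 to 6 arrays. Kcng1 and Kcnf1 are electrically silent subunits that alter other Kv pores. Kcng1 had 6.98, 8.24 and 9.08 in WKY control and 7.56, 5.61, 5.89 and 7.22 in WKY collateral arteries, against 5.74, 5.74, 6.98 and 6.04 in SHR control and 7.65, 6.90, 7.45 and 7.45 in SHR collateral arteries. Collateral minus control was -1.53 ± 0.68 in WKY and 1.24 ± 0.63 in SHR, and the interaction was 2.77 ± 0.93 (unadjusted p 0.00809, adjusted p 0.9997). Only 4 arrays lay above the threshold for Kcng1. Kcnf1 had 5.28, 5.48, 7.02 and 6.71 in SHR control and 8.24, 8.67, 8.08 and 7.13 in SHR collateral arteries, the only channel probe set higher without overlap there (1.67%, against 0.906%). Its SHR difference was 1.91 ± 0.67, 1.89 without SHR collateral 3, and 1.41 ± 0.49 in the mean of both strains (adjusted p 0.807). All 4 SHR control arrays lay below the threshold for Kcnf1, and SHR collateral 1 and 2 above it. Its differences that take in the SHR collateral group may thus be partly built into its passing the filter. In WKY the Kcnf1 difference was 0.91 ± 0.72 with overlap.

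Kcnc1, a fast Kv3 pore, had an interaction of 3.42 ± 1.26 (adjusted p 0.9997), and 2.71 without SHR collateral 3, which held its highest value of 9.77. Kcna1 stood at 2.27 ± 1.18 and Kcnh8 (AF061957_at) at 1.88 ± 1.11 for the interaction, and at 1.46 and 1.24 without that array. Of 23 nerve marker probe sets 15 were tested, and 11 of these had an interaction above 0, with a median of 0.60 against 0.035 for all tested. That median was 0.18 without SHR collateral 3, against -0.0061 for all. Summed nerve signal ranged from 6002 to 9857 in WKY control, 6098 to 10305 in WKY collateral, 7096 to 9369 in SHR control and 5414 to 19974 in SHR collateral arteries, and 4 of the 23 probe sets lay below the threshold on all arrays. The part of nerve in these interaction values was not tested. The second Kcnh8 probe set, AJ007632_s_at, had an SHR collateral difference of 0.68 ± 0.53, or 0.45 without SHR collateral 3, against 1.56 ± 0.75 for AF061957_at, which was 0.93 without it. Kcnh2 (U75210_s_at) and Kcnh3 (AJ007627_at) had strain differences of -0.01 ± 0.24 and -0.02 ± 0.22, which were -0.080 and -0.14 without SHR collateral 3. Kcnq3 and Kcnn1 stood at -0.22 ± 0.23 and -0.22 ± 0.27, the latter at -0.38 without that array. The background potassium channel Kcnk3 (AF031384_at), which helps to set the resting potential, stood at 0.89 ± 0.48, and the silent subunit Kcns3 at 0.65 ± 0.35, both with 95% intervals that span 0.

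The other genes of calcium and membrane potential control were read from a list of pumps, exchangers, release channels, gap junction proteins and regulators, of which 33 genes had 60 tested probe sets. In the strain comparison over both vessel types 4 were higher and 7 lower at an unadjusted p under 0.05 (against 6.73% and 5.13% of all tested), with a median of -0.02, against 0.07 for all. Without SHR collateral 3 the median was -0.12, against 0.015 for all, and 23 of 56 probe sets lay above 0. Of the 56, 9 reached an unadjusted p under 0.05, against 12.4% of all tested. With all arrays a single probe set of the 60 was called, against 0.891% of all tested. It was Gja5 (AF022136_at), which codes for connexin 40, a gap junction protein of arterial endothelium. It had 13.49, 13.37 and 13.50 in WKY control, 13.99, 14.25, 14.42 and 13.36 in WKY collateral, 12.33, 12.05, 11.66 and 11.89 in SHR control, and 13.15, 13.19, 10.46 and 12.14 in SHR collateral arteries. All SHR arrays lay below all WKY arrays, and the difference was -1.62 ± 0.32 (adjusted p 0.0177), or -1.33 without SHR collateral 3. The call was lost with equal array medians (adjusted p 0.0635), without the variance trend (0.0729) and without SHR control 3 (0.0552), WKY control 1 (0.0511) or WKY control 3 (0.0599). The other tested Gja5 probe sets did not go with it: the group means of M76535cds_at were 10.52 in WKY control, 10.05 in WKY collateral, 10.56 in SHR control and 10.33 in SHR collateral arteries. Their strain differences were 0.16 (M76535cds_at) and 0.44 (M76535cds_g_at), and 0.055 and 0.17 without SHR collateral 3. For Gja5 too, a strain difference in the probed sequence and a difference in level cannot be told apart.

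Endothelial markers were read beside Gja5. Of 12 probe sets 10 were tested, 2 lay above the threshold on all 15 arrays and 2, of Nos3 and Vwf, on none. The median strain difference of the tested ones was 0.0052, with 5 of 10 above 0, and -0.17 with 3 of 10 above 0 without SHR collateral 3. The adhesion molecule Icam2 stood at -2.79 and endothelin, Edn1, at -1.39, while Pecam1, a junction protein of endothelium, stood at 0.70. Of the 10 tested, 1 was called over both vessel types, against 0.891% of all tested probe sets. This was Icam2, which had the smallest p of the endothelial markers. Summed endothelial signal ranged from 5091 to 6397 in WKY control, 3426 to 6482 in WKY collateral, 2908 to 3979 in SHR control and 2038 to 6784 in SHR collateral arteries, so the control groups did not overlap. Such a sum weighs bright probe sets most, and the brightest in WKY control was Icam2. Its mean log2 signal was 11.12 in WKY control and 7.50 in SHR control arteries. Edn1 stood at 8.67 and 7.19 in these groups, Kdr at 8.51 and 8.57 and Pecam1 at 8.20 and 8.93. The part of endothelium in the Gja5 value was not tested.

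None of the other genes of the calcium and membrane potential list was called. Lower in SHR at an unadjusted p under 0.05 were the sarcoplasmic calcium pump Atp2a2 (AA799276_at, -0.68 ± 0.28), its regulator phospholamban Pln (-0.92 ± 0.43), calmodulin Calm2 (-0.62 ± 0.24), the kinase Camk2d (rc_AA894330_s_at, -0.67 ± 0.30) and the ATP-gated channel P2rx1 (-1.26 ± 0.54). The release channel Itpr1 went both ways, at -1.46 ± 0.64 (J05510_at) and 1.50 ± 0.70 (M64698_s_at). Camk2d did so too, with its other tested probe sets at 0.49 (J05072_at), 1.19 (L13406_s_at) and -0.23 (rc_AI009268_at). The other Atp2a2 probe sets stood at -0.46 (rc_AA957510_s_at), -0.27 (J04024_at) and 0.02 (rc_AA800212_at). Higher were Itpr3 (L06096_g_at, 0.42 ± 0.17), Atp2a1 (1.03 ± 0.48) and the sodium pump subunit Atp1b1 (0.79 ± 0.37). For collateral against control arteries in the mean of both strains, 0 of 60 were higher and 2 lower at that level (against 2.53% and 2.58%). Without SHR collateral 3 the strain differences of P2rx1, Itpr1 (J05510_at) and Camk2d (rc_AA894330_s_at) were -0.69, -0.76 and -0.40.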

How the data were processed

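Per the submitters' processing notes, the deposited signal came from GCOS and MAS5, with no version given in the sources used here. MAS5 subtracts local background and scales each array to a common level, so dim values are noisy and an array with weak labelling has raised dim signals. The members and gene lists were chosen with earlier results of these data known.

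Of 8799 probe sets, 59 array controls were left out. The 12 values below 1 were raised to 1 before log2 was taken. Probe sets at or above their array's 40th percentile on at least 3 of the 15 arrays were tested (6512). Groups came from the sample titles. The test was limma 3.58.1 (R 4.3.3), moderated with a variance trend, on a model with 1 mean per group over all 15 arrays (11 residual and 7.19 prior degrees of freedom). P-values were adjusted by Benjamini-Hochberg, with a call at 0.05. The fit was tested on simulated data. The median standard error was 0.54 for the WKY vessel difference and 0.37 for the strain mean, set by the spread between arrays and by their number.

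Gene symbols came from the platform annotation, and those of all 68 channel genes matched the RefSeq gene table by gene identifier. Named were called members, up to 4 members per direction and comparison with the smallest p, a fixed list of vascular channel genes, and members above the threshold on all or no arrays. The further members, marker genes and calcium handling genes named were added after their values were seen. Probe sets of 1 gene were not averaged, and a probe set whose name ends in _s_at can read more than 1 related transcript.

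Alternatives changed the scaling (quantile normalization or equal medians), the filter (none or the 60th percentile), the dim signals (64 added before log2), the model (array weights, no trend, the replicate number as a block, a fit to the compared groups alone) and the arrays (each left out).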

Additional observations from a re-analysis of the deposited data

Results flagged for a closer look

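In 7 of 105 groups of 4 arrays, over the 35 named probe sets, the highest or lowest array stood apart from the rest of its group beyond the 95% critical value of Dixon's test. Chance flags about 1 in 20 groups. These were single arrays, and 0 of the 7 was SHR collateral 3. For Cacnb2 they were SHR control 3, at a log2 signal of 5.58 (M80545_at), and WKY collateral 3, at 10.35 (rc_AA891260_at). WKY collateral 3 was also apart for Kcnj8 at 10.49 and for Cacnb3 at 9.11. SHR collateral 4 was apart for Kcnd3 (rc_AI230211_s_at) at 8.24, the 1 SHR collateral array above the threshold, and for Cacna1d (M57682_at) at 2.88. The last was SHR collateral 2 for Cacna1h at 6.96.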

How the results depend on the processing

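Channel probe sets called at an adjusted p under 0.05 stayed at 0 for 6 comparisons, under all alternatives fitted for them. For SHR against WKY over both vessel types the count was 1 without a variance trend, 2 with array weights, and 0 to 1 with 1 array left out (1 without SHR control 4). Counting at an unadjusted p under 0.05 gave 2, 2, 2, 5, 4, 4 and 5 in the 7 comparisons, in the order of the report. The count above the 40th percentile on 3 arrays, 60, became 38 on 8 arrays, 17 on all 15, and 21 at the 60th percentile.

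Of 74 named differences, 63 kept their sign throughout, and 42 of 1767 alternative values were reversed, 32 of them with 1 array left out. None of the reversed differences was called. For collateral minus control in the mean of both strains, Kcnmb1 (AF020712_at) was -0.0065 with equal medians, -0.0033 with array weights and -0.045 to 0.15 with 1 array left out. Kcna5 was 0.011 with quantile normalization, 0.022 with the constant and -0.21 to 0.25 with 1 array left out. Kcnab2 (rc_H33656_at) was -0.030 with equal medians and -0.12 to 0.17 with 1 array left out, and Cacna1c (M59786_at) 0.070 with array weights and -0.40 to 0.14. Leaving out 1 array gave -0.23 to 0.026 for Cacnb3 and -0.029 to 0.44 for Cacnb1. For SHR minus WKY over both vessel types, Kcna5 was -0.053 with array weights and -0.040 to 0.41 with 1 array left out. Cacnb1 was -0.049 with quantile normalization, -0.099 with equal medians, -0.24 with array weights and -0.21 to 0.26 with 1 array left out, and Kcnj8 -0.15 to 0.088. Cacna1d (M57682_at) ran from -1.75 to 0.061 for the interaction and from -1.40 to 0.18 in collateral arteries. The cause was not tested.

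The labels do not say whether same-numbered arrays share an animal. To look at this, each probe set's group mean was first subtracted from its values. What remained on same-numbered control and collateral arrays of a strain correlated at -0.07 to 0.31, with 6 of 7 pairs above 0. For 4 of 7 the correlation was highest with the same number, so the pairing is undecided and was not used. With the number as a random replicate block, 0 channel probe sets were called. A fixed block was fitted only for the comparisons of collateral with control arteries and the interaction, where 0 were called. It was not fitted for SHR against WKY. The rule on the 40th percentile left out 48 of the 108 members, 26 of them above it on 1 or 2 arrays, and signal over background was not measured.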
